A study of Schizosaccharomyces pombe with 6 samples.

Results

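The genes described here encode 7 enzymes of histidine synthesis in the fission yeast Schizosaccharomyces pombe. They were chosen by identifier from the deposited table: his1 (SPAC25G10.05c), his7 (SPBC29A3.02c), his4 (SPBC418.01c), his5 (SPBC21H7.07c), his3 (SPBC11B10.02c), his9 (SPCC1672.01) and his2 (SPBC1711.13). All 7 were found among the 7016 features of the table, and all 7 passed the filter on low values. The reference annotation gives SPCC1672.01 the product histidinol-phosphatase and no symbol, and the name his9 is that of the member list. The gene his6 (SPAC3F10.09), which encodes the isomerase of the pathway, is not among the members and is described beside them.

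RNA came from asynchronous log-phase cells grown in liquid YES, a rich medium, at 30 °C. In one group 3 cultures were incubated for 3 h with 1 µM beta-estradiol dissolved in ethanol, and in the control group 3 cultures received the vehicle. The labels do not give the strain, its genotype or the hormone-responsive activator for either group. Libraries are numbered 0 to 2 within each group, as in the table. The values are FPKM, fragments scaled to the length of the gene and the size of the library, so levels are per length and can be compared between genes.

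Histidine is made from phosphoribosyl pyrophosphate (PRPP) and ATP by a linear pathway that is conserved from bacteria to fungi and absent from animals. The step catalysed by imidazoleglycerol-phosphate synthase also releases AICAR, an intermediate of purine synthesis, and so ties the pathway to adenine nucleotides. In budding yeast, amino acid starvation raises genes of this and other amino acid pathways together through the kinase Gcn2 and the activator Gcn4. In fission yeast the GATA-type factor Fil1 has that role.

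After estradiol, 2 of the 7 genes were called lower in the main test. They encode the enzymes at both ends of the pathway, his1 at its entry and his2 at its last steps. Both calls were lost under quantile and under cyclic loess normalization. The main test called none higher. The gene of the next steps after his1, his7, had higher values in every estradiol library without passing that test. It was called higher under both normalizations and with a replicate block. Of the 6166 genes tested, 3.91% were called lower and 4.07% higher (limma on log2(FPKM + 1), Benjamini-Hochberg adjusted p under 0.05 over all tested genes), against 28.6% of the members called lower. The members' median log2 change was -0.11, beside 0.02 over all tested genes.

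The stretches of DNA upstream of both called genes are shown because each is the whole gap between the annotated transcript and its upstream neighbour on the reference (RefSeq ASM294v3, not necessarily the authors' build). They are written 5′ to 3′ on the strand of the his gene. Capitals mark TGACT, the core of the site bound by Gcn4 in budding yeast, and GATAA, a core letter string bound by GATA factors, on either strand.
his1, chrI:4305821-4305935, minus strand: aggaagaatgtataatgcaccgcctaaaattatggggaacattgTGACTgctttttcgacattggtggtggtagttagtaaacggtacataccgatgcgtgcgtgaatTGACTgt
his2, chrII:2159734-2159844, plus strand: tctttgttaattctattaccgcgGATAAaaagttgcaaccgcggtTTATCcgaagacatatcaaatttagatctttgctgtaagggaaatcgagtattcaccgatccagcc

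The gap of his1 is 115 bases long and holds TGACT at 2 places and GATAA at none. It separates his1 from rps2801, a small-subunit ribosomal protein gene read in the other direction. The gap of his2 is 111 bases long and holds GATAA at 2 places, once on each strand, and TGACT at none. Over the 250 bases upstream of each annotated protein-coding gene, GATAA was present on either strand in 54.2% of 5112 windows and in those of all 7 members. TGACT was present in 36.3% of windows and in those of his1, his7 and his5. These letter strings were chosen after the gaps had been read, and a match is a description and not a site of binding.

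The longer string TGACTC was present in 5.63% of windows and, among the members, only in that of his7. That copy begins 84 bases upstream of the annotated start of his7, inside the transcript of the neighbouring gene gid2, and is shown in capitals with its flanks.
his7, chrII:2042259-2042288, minus strand: gagatctcttttGAGTCAgaaaatctgacg

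The window of his7 thus held the complete string on its reverse strand, while the gap of his1 held only its first 5 letters. GATAAG was present in 10.2% of windows and in 0 of the members' windows. The study's title names an estradiol-inducible promoter, and a common activator for such systems in yeast carries the DNA-binding domain of Zif268. The Zif268 string GCGTGGGCG was in 0 of the 5112 windows on either strand, the members' windows included.

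The first enzyme, ATP phosphoribosyltransferase, joins ATP to PRPP and is encoded by his1. In budding yeast the corresponding enzyme is inhibited by histidine. The level of his1 was 527, 505 and 435 FPKM in control libraries 0, 1 and 2, and 388, 331 and 309 FPKM in estradiol libraries 0, 1 and 2. All estradiol libraries lay below all control libraries, and library 0 was the highest in both groups. The means were 489 ± 48.3 and 343 ± 41.0 FPKM (SD, n = 3 each), a log2 change of -0.51 (standard error, SE, 0.11; limma adjusted p = 0.0364). This is 0.700 times the control level, and 3.15% of tested genes had a lower log2 change. The call was lost without control 0, control 1, estradiol 1 or estradiol 2 (highest limma adjusted p = 0.123), and under quantile normalization the log2 change was -0.32 (limma adjusted p = 0.0988). It was also lost under cyclic loess normalization, without the filter on low values and without the variance trend (limma adjusted p = 0.104, 0.055 and 0.0615).

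The steps after it, which remove pyrophosphate and open the adenine ring, are carried by 1 protein encoded by his7. Its level was 430.5, 424 and 391 FPKM in the control libraries and 477, 486 and 459 FPKM in the estradiol libraries. Every estradiol library lay above every control library, the opposite order from his1. The means were 415 ± 21.1 and 474 ± 13.5 FPKM (SD, n = 3 each), and the log2 change of 0.19 (SE 0.06) did not pass the test (limma adjusted p = 0.107). With the column number as a replicate block the same change was called higher (limma adjusted p = 0.0419), as it was under quantile normalization at a log2 change of 0.37 (limma adjusted p = 0.0194). Cyclic loess normalization, which removes differences between libraries that follow the level, gave 0.39 (limma adjusted p = 0.0108). The block called 8.5% of tested genes lower and 8.21% higher, quantile normalization 1.75% and 2.34%, and cyclic loess 1.77% and 2.89%.

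**Figure D1:**
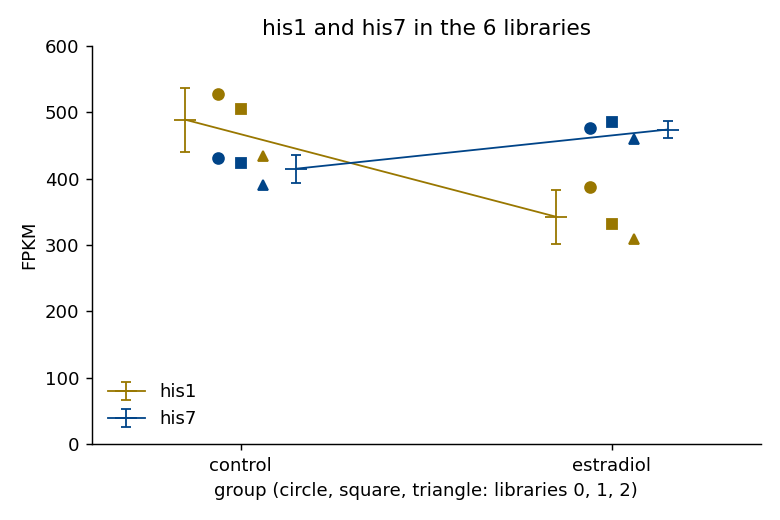
FPKM of his1 and his7 in each library (circle, square and triangle for libraries 0, 1 and 2), with means and SD as bars for 3 libraries per group. In every control library his1 lies above his7, and in every estradiol library his7 lies above his1.

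Their order changed between the groups. The ratio of his1 to his7 within a library was 1.22, 1.19 and 1.11 in the controls and 0.814, 0.681 and 0.672 with estradiol. A ratio within a library does not depend on how the libraries are scaled as a whole. The groups of ratios did not overlap, and no test is given because this pair was picked after the values were seen. The share of his1 in the summed FPKM of the 7 members was 31.0, 30.6 and 28.4% in the controls and 25.2, 23.0 and 22% with estradiol. The share of his7 was 25.3, 25.7 and 25.6% in the controls and 31.0, 33.7 and 32.8% with estradiol.

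After the isomerase step, imidazoleglycerol-phosphate synthase closes the imidazole ring and releases AICAR. Its gene his4 had 152, 157 and 138 FPKM in the control libraries and 146, 139.7 and 127 FPKM in the estradiol libraries. The groups overlapped, and the log2 change was -0.11 with a 95% confidence interval of -0.30 to 0.08 (limma adjusted p = 0.432). The dehydratase gene his5 follows, whose product removes water from imidazoleglycerol phosphate and which serves as a selectable marker in budding yeast. It had 164, 154 and 165 FPKM without estradiol and 162, 142 and 157 FPKM with it. Its groups also overlapped, with a log2 change of -0.07 and an interval of -0.23 to 0.09 (limma adjusted p = 0.57).

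The aminotransferase gene his3, whose product adds the amino group of histidinol phosphate, had 207, 205 and 182 FPKM in the controls and 195, 172 and 160.2 FPKM with estradiol. The highest estradiol library lay above the lowest control library. The log2 change was -0.17 with an interval of -0.39 to 0.04 (limma adjusted p = 0.279). Neither his4, his5 nor his3 was called under any alternative.

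The phosphatase gene his9 had 15.8, 14.6 and 14.1 FPKM in the controls and 17, 18.6 and 16.7 FPKM with estradiol. Like his7 it had every estradiol value above every control value and did not pass the test (log2 change 0.22, SE 0.09, limma adjusted p = 0.168). This gene was the lowest member in all 6 libraries. Its reference model has 5216 exon bases, of which 17.7% are coding, and 2191 bases of the gene's span lie under sap1 on the other strand. The gene sap1, which encodes an essential DNA-binding protein, had 198 ± 5.89 and 172 ± 5.04 FPKM (SD, n = 3 each, log2 change -0.20, limma adjusted p = 0.0686), and was called lower with the replicate block (limma adjusted p = 0.0411) and without the filter on low values (limma adjusted p = 0.0488). The library kit does not mark strand, so reads of his9 and sap1 in that stretch cannot be told apart, and the level of his9 depends on which gene model the authors used.

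The last steps, from histidinol to histidine, are carried by histidinol dehydrogenase, encoded by his2. Its level was 205, 189 and 205 FPKM in the control libraries and 153, 151 and 171 FPKM in the estradiol libraries. All estradiol libraries lay below all controls. The means were 199.7 ± 9.24 and 158 ± 11.1 FPKM (SD, n = 3 each), a log2 change of -0.34 (SE 0.07, limma adjusted p = 0.0352), or 0.792 times the control level. The call held when estradiol 2 was left out (limma adjusted p = 0.0452). It was lost without any other single library (highest limma adjusted p = 0.122), and under quantile normalization the log2 change was -0.27 (limma adjusted p = 0.1001), with limma adjusted p of 0.12 under cyclic loess and 0.0621 without the variance trend.

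The isomerase gene his6 had 17.5, 20.1 and 20.8 FPKM in the controls and 18.8, 19.7 and 19.0 FPKM with estradiol. The 3 estradiol values fell within the range of the controls, with a log2 change of -0.02 and an interval of -0.23 to 0.19 (limma adjusted p = 0.914). Its span overlaps 1755 bases of map3, the gene of a pheromone receptor on the other strand, which had 25.7 ± 1.12 and 29.9 ± 0.97 FPKM (SD, n = 3 each, log2 change 0.21, limma adjusted p = 0.105). As with his9, reads of the shared stretch cannot be assigned. The same limit holds for his3, which shares 1500 bases with alg2, and for his5, all 1072 bases of which lie opposite SPNCRNA.1500. The means of alg2 were 31.8 and 30.8 FPKM and those of SPNCRNA.1500 were 4.90 and 6.18 FPKM, and neither was called. On the same strand, SPNCRNA.1618 shares 56 bases with his4 (34.8 and 30.2 FPKM, not called) and SPNCRNA.466 shares 1081 bases with his9 (below 1 FPKM in every library, not tested).

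**Figure D2:**
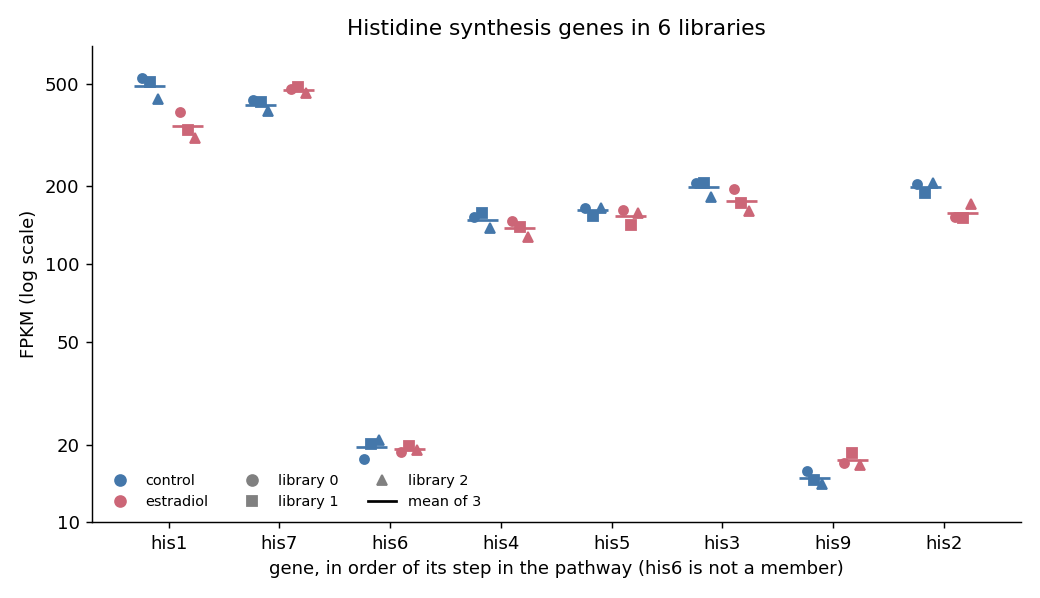
FPKM on a log scale for the 7 members and his6, in pathway order, with 1 point per library and a bar at the mean of 3 libraries. The levels of his1 and his7 lie above 300 FPKM in every library, those of his4, his5, his3 and his2 between 127 and 207, and those of his6 and his9 between 14.1 and 20.8.

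The levels of the members therefore fell into 3 ranges. In the controls his1 and his7 stood highest, and their ranges of 435 to 527 and 391 to 430.5 FPKM did not overlap. The genes his2 and his3 followed at 199.7 ± 9.24 and 198 ± 13.7 FPKM, which differed by less than their SD. The next were his5 at 161 ± 6.22 and his4 at 149 ± 10.2 FPKM, whose control ranges overlapped, and his9 was lowest at 14.8 ± 0.87 FPKM (SD, n = 3 each). Between 54.0% and 56.7% of the members' summed FPKM came from his1 and his7 together in each library. The sum itself was 1701, 1649.6 and 1530.3 FPKM in the controls and 1538, 1440.5 and 1400.2 FPKM with estradiol, and the groups overlapped. The summed FPKM of all features was also lower with estradiol, at 876214, 850759 and 831139 in the controls and 798655, 767792 and 788287 with it.

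**Figure D3:**
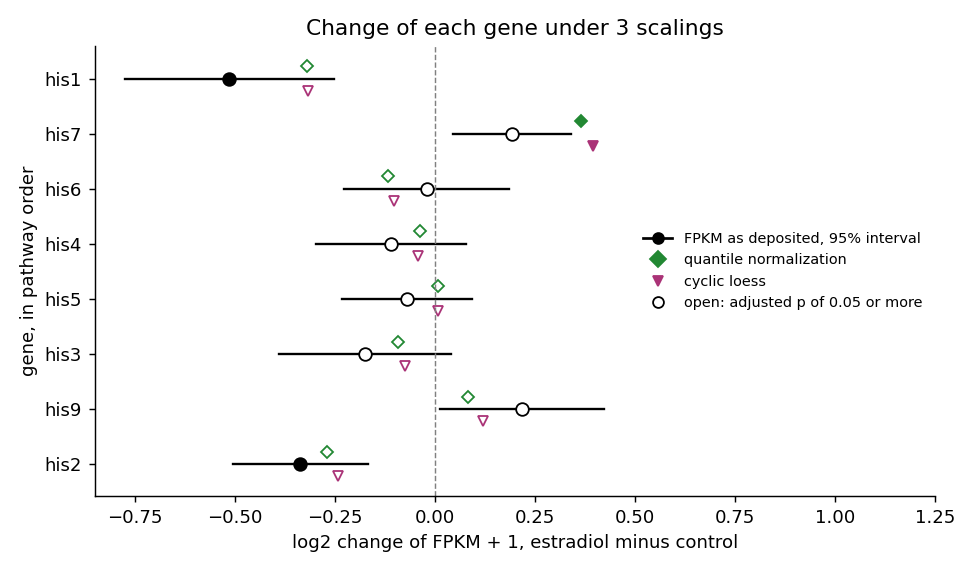
Log2 change of FPKM + 1 (estradiol minus control) for each gene, with a 95% confidence interval for the values as deposited, and the change under quantile and cyclic loess normalization. Filled symbols passed the test, and among the members these are his1 and his2 as deposited and his7 under both normalizations.

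Across the members, 2 of 7 had all estradiol values below the controls, 2 of 7 (his7 and his9) had them all above, and 3 of 7 overlapped. Over all tested genes the estradiol libraries lay below the controls in 14% and above in 17.1%. Both normalizations moved the members upward except his9, which is expressed at a lower level. The log2 change of his5 was then 0.01 in both, above 0, and those of his1, his4, his3 and his2 stayed below 0. The median over all genes moved by less than 0.1 under each scaling.

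The neighbours of the 2 called genes did not share their fall by the test. Across the gap from his1, rps2801 had 774, 614 and 554 FPKM in the controls and 469, 602 and 406 FPKM with estradiol. Its groups overlapped (log2 change -0.40, limma adjusted p = 0.209). Upstream of his2, ppp16 had a log2 change of -0.01 (limma adjusted p = 0.978). Downstream of it SPBC1711.15c, on the other strand and 33 bases away, rose from 8.27, 11.6 and 8.98 FPKM to 18.2, 18.5 and 23.2 FPKM (log2 change 0.99, SE 0.15, limma adjusted p = 0.0153). That call was lost without control 0 or estradiol 1 (highest limma adjusted p = 0.0582). The noncoding RNAs that the reference places opposite his1, his7 and his2 are not analysed here.

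The gene upstream of his7, gid2, encodes a subunit of the ubiquitin ligase that removes gluconeogenic enzymes in budding yeast. It has the strand of his7 and overlaps it by 41 bases on the reference. It rose from 23.8 ± 0.69 to 32.4 ± 1.63 FPKM (SD, n = 3 each, log2 change 0.43, SE 0.07, limma adjusted p = 0.0174), with every estradiol library above every control. The call held without control 2 or estradiol 0 and was lost without any of the other libraries (highest limma adjusted p = 0.0682). Its level is far below that of his7, and any part of gid2 reads in the value of his7 was not tested.

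Other pathways of amino acid synthesis had more genes called lower. Of 72 genes listed for 7 groups of pathways, 67 were in the table and tested. By limma 30 were called lower and 0 higher, with a median log2 change of -0.30, against 2 lower and 0 higher of the 7 histidine genes with a median of -0.11. The 67 include str3, a siderophore-iron transporter gene, and gdh2, whose enzyme breaks glutamate down. The lists share these 6 libraries, and the difference between histidine and the other pathways was not tested. Before adjustment, the p of his7 was 0.0176 and that of his9 was 0.0398. Among the genes of other pathways arg7, sua1, met9 and cys12 had positive changes with p of 0.024, 0.0254, 0.0344 and 0.0212 before adjustment.

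**Figure D4:**
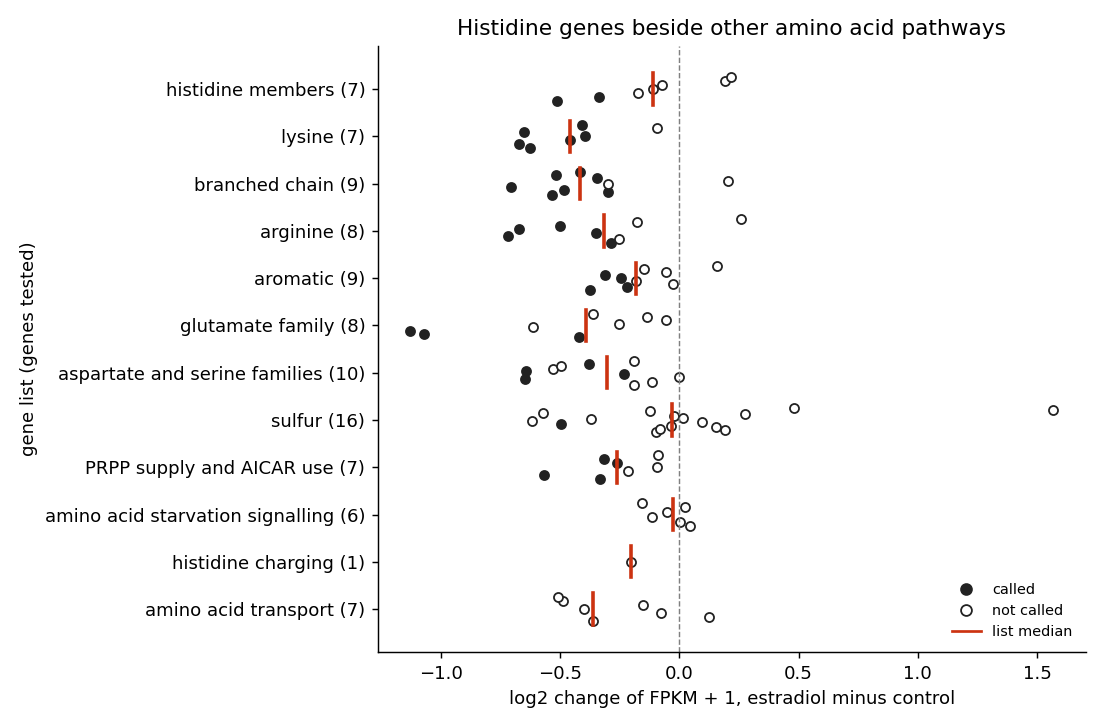
Log2 change of FPKM + 1 (estradiol minus control) for each tested gene of the histidine members, 7 other amino acid pathway lists and 4 linked lists, with the number tested in brackets and a red bar at the list's median. The histidine median of -0.11 lies between that of the aromatic list (-0.18) and that of the sulfur list (-0.03). The sulfur list includes the iron transporter gene str3, and the PRPP list the tRNA ligase gene prs1.

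The lysine list had the largest share called lower, 6 of 7 with a median of -0.46, followed by the branched-chain list with 7 of 9 (median -0.42) and the arginine list with 5 of 8 (median -0.32). The leading lysine gene was lys4, which encodes homocitrate synthase (log2 change -0.65, SE 0.06, limma adjusted p = 0.00486). The branched-chain list was led by ilv5, the acetohydroxyacid reductoisomerase gene (-0.71, SE 0.07, limma adjusted p = 0.0049). The arginine list was led by arg5, a carbamoyl-phosphate synthase subunit gene (-0.50, SE 0.06, limma adjusted p = 0.00723). Each of these genes kept its call without any single library and under quantile normalization. The fall of his1 was of like size to that of arg5, with a larger SE.

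By its median the histidine list lay between the aromatic and sulfur lists, and by its share called lower (28.6%) between the sulfur list (6.25%) and the glutamate family (37.5%). Of the aromatic genes 4 of 9 were called lower (median -0.18), led by aro1, which encodes the multifunctional shikimate enzyme (-0.37, SE 0.05, limma adjusted p = 0.0148; lost without control 0, control 1 or estradiol 1, at most 0.0642). Of the sulfur genes 1 of 16 was called lower (median -0.03), the adenylylsulfate kinase gene met14 (-0.50, SE 0.07, limma adjusted p = 0.0142). Quantile normalization gave met14 -0.31 (limma adjusted p = 0.0861), and its call was also lost without control 0, control 1 or estradiol 1. The glutamate family had 3 of 8 (median -0.39), led by gdh2 (-1.13, limma adjusted p = 0.00237). That gene encodes the NAD-dependent glutamate dehydrogenase, which breaks glutamate down. The aspartate and serine families had 4 of 10 (median -0.31), led by the phosphoserine phosphatase gene ser2 (-0.64, limma adjusted p = 0.00492). The largest positive change within the branched-chain, arginine, aromatic and sulfur lists, that of leu1 (0.20), arg7 (0.26), tyr1 (0.16) and str3 (1.57) in turn, was not called. In fission yeast str3 (SPAC1F8.03c) encodes a siderophore-iron transporter and not a sulfur enzyme. It is nevertheless counted in the 16 genes, the share and the median of the sulfur list. Apart from str3, the largest positive change there was that of sua1 (0.48, limma adjusted p = 0.128). Under cyclic loess normalization leu1 was called higher (log2 change 0.54, limma adjusted p = 0.0457), and str3 ranged from 0.691 to 25.7 FPKM within the controls.

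Genes of purine synthesis were also lower in part. Of the 7 tested in the list of PRPP supply and AICAR use, 4 were called lower, with a median of -0.26. Among the 4 was prs1 (log2 change -0.32, limma adjusted p = 0.0486), which in fission yeast encodes a proline-tRNA ligase and does not supply PRPP. The PRPP synthetase gene prs5 was not called (-0.09, limma adjusted p = 0.707). The smallest p was that of ade10, whose product uses AICAR. It fell from 399.6 ± 24.7 to 269.5 ± 21.6 FPKM (SD, n = 3 each, log2 change -0.57, SE 0.08, limma adjusted p = 0.0129). It held its call under quantile normalization (log2 change -0.40, limma adjusted p = 0.0331) and lost it without control 0, control 1 or estradiol 1 (highest limma adjusted p = 0.0583).

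Genes of histidine charging, amino acid starvation signalling and amino acid transport were not called. The histidine tRNA ligase gene hrs1 had 281, 259.5 and 268 FPKM in the controls and 226, 229 and 247 FPKM with estradiol, with the groups apart (log2 change -0.20, SE 0.06, limma adjusted p = 0.096). Of the 6 genes of amino acid starvation signalling 0 were called by limma. Only 1 was under 0.05 before adjustment, tif211, which encodes eIF2 alpha (log2 change -0.16, limma adjusted p = 0.172), and its sign turned under quantile and cyclic loess normalization. The largest positive change there was that of fil1, with 411 ± 19.2 and 424 ± 15.7 FPKM (SD, n = 3 each, log2 change 0.04, limma adjusted p = 0.703). Calls among the 7 amino acid transport genes numbered 0, while their median log2 change was -0.36, with 6 negative and 1 positive. Under 0.05 before adjustment was 1 of them, the vacuolar transporter gene fnx2 (-0.40, limma adjusted p = 0.108). It was called lower with the replicate block (limma adjusted p = 0.0239). The permease gene cat1 had 0.12 (limma adjusted p = 0.619).

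The members did not vary as 1 block from library to library. Pearson's r over the 6 libraries with the members' mean standardised profile was 0.96 for his3, 0.88 for his4 and his1, 0.45 for his5, 0.42 for his2, -0.24 for his7 and -0.32 for his9. Between single members it was highest for his3 with his4 and for his7 with his9, both at 0.95, and lowest for his7 with his2, at -0.92. The 5 tested genes most like the mean profile were the lncRNA SPNCRNA.1041, the tubulin gene atb2, the uracil-regulated genes urg2 and urg1, and pgl1, with r from 0.99 to 0.995 over 6 libraries. Of these urg1 varied most, with 361, 176 and 64.7 FPKM in the controls and 168, 43.2 and 19.2 FPKM with estradiol. None of the 5 was called without the replicate block. With it urg1 (log2 change -1.60, limma adjusted p = 0.00531) and urg2 (-1.35, limma adjusted p = 0.00254) were called lower. These correlations describe 6 libraries that share treatment groups and scaling, and the profile was highest in control library 0.

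The reporter GFP went from 147 ± 15.3 to 714 ± 141 FPKM (SD, n = 3 each, log2 change 2.26, limma adjusted p = 0.00158), in the direction of the labels. Of 6 genes marking growing cells, 5 had group means between 1024 and 20907 FPKM, and adh1 was below 1 FPKM in every library. Of the 5, limma called 1 lower, the ribosomal protein gene rpl301 (log2 change -0.55, limma adjusted p = 0.0151). The summed level of 4 sporulation markers was 63.2 to 71.2 FPKM in the controls and 94.4 to 117 FPKM with estradiol, with 2 of 4 called higher. The sum of 4 mating markers was 74.1 to 125 and 36.6 to 53.9 FPKM, with 1 of 4 called lower. This was mfm2 (means of 68.4 and 26.3 FPKM), which had the highest mean of the 4 in each group. None of these markers was listed at 0 in all libraries, mfm1 was at 0 in library 0 of both groups, and their part in the results on histidine genes was not tested. In bulk RNA, fewer cells that express a gene and less of its RNA per cell cannot be told apart.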

How the data were processed

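The authors deposited FPKM values for 7016 features in 6 libraries, replicates kept apart, after removal of ribosomal RNA and paired-end TruSeq sequencing, per the labels' protocols. CASAVA 1.4, TopHat2 and Cuffdiff are named, with no settings, per the submitters' processing notes. Neither the build nor a scaling step is given in the sources used here. Because FPKM divides by a library total, a fall in abundant genes raises the others. Columns were put in groups by the condition number that their names share with the sample titles, and which labelled replicate a column holds is unknown.

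Computed here: 6166 features with a mean of at least 1 FPKM entered a 2-sided test in limma 3.58.1 (R 4.3.3), fitted to log2(FPKM + 1) values with a variance trend, Benjamini-Hochberg adjusted over all of them, and called at an adjusted p under 0.05. The log2(FPKM + 1) scale understates changes of low genes. The fit was tested on simulated data. SE and 95% intervals are limma's. Deviations from group means correlated at 0.152, 0.212 and 0.146 between same-numbered control and estradiol columns, so the column number was used as a replicate block in an alternative. It is not known what these columns share.

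The table holds no counts. The spacing of values in genes below a mean of 2 FPKM gave depths of 0.687 to 1.3 relative to control library 0, and 462 to 599 features per library were listed at 0. With absolute depth unknown, no counting interval is given. The series design calls the cultures biological triplicates.

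Members, lists and tests were chosen with earlier results of these data known. Genes named are the members, his6, GFP, overlapping features in the table, the smallest p and largest rise of each list, and the 5 genes most like the members' mean profile. Beyond that rule, sua1, met9, cys12, prs1, prs5, rpl301, mfm1, mfm2, isp3, mei4, spo6, meu14 and neighbours that do not overlap a member were chosen after their values were seen. 1 further feature is not reported here. Symbols and gene models came from RefSeq ASM294v3, to which 6845 identifiers matched. Of the listed symbols, those without a match were left out. Lists were matched by symbol, so str3 and prs1 entered lists to which their fission yeast products do not belong. Python 3.11.15, pandas 2.3.3 and matplotlib 3.10.9 made summaries and figures. The alternatives changed the pseudocount, the filter, the scaling or the trend, set a 1.5-fold minimum, added the block, or left out each library. Cyclic loess was added after the data were seen.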

Additional observations from a re-analysis of the deposited data

How the results depend on the processing

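Of the 7 histidine genes, limma called 2 lower and 0 higher. Both counts were the same at pseudocounts of 0.1 and 5, with a minimum mean of 10 FPKM and under median-ratio scaling. The number lower was 1 without the filter on low values, 0 without the intensity trend, 0 with a 1.5-fold minimum, 0 under quantile normalization, 0 under cyclic loess, and 0 to 1 with each library left out. The number higher was 1, his7, with the replicate block, under quantile normalization and under cyclic loess. Of the 67 tested genes of other pathways 30 were called lower. That number was 23 without the trend, 10 with the 1.5-fold minimum, 15 under quantile normalization, 14 under cyclic loess, 41 with the block, and 8 to 32 with each library left out. The number higher was 2 with the block and 1 under cyclic loess. Over all tested genes, 241 lower and 251 higher became 524 and 506 with the replicate block, 59 and 141 with the 1.5-fold minimum, 108 and 144 under quantile normalization, 109 and 178 under cyclic loess, and 37 to 207 and 49 to 242 with each library left out. Among the genes given by the naming rule above, the block changed the call of his7, sap1, fnx2, urg1 and urg2 and no other. For genes named beyond that rule, calls with the block are not given.

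Signs turned only in values that were not called. The log2 change of his5 was 0.00827 under quantile normalization and 0.00848 under cyclic loess, that of tif211 0.0277 and 0.0602, and that of SPNCRNA.1437 -0.0133 under quantile normalization. With each library left out, the ranges that crossed 0 were -0.0911 to 0.0262 for his6, -0.169 to 0.354 for SPNCRNA.1437 and -0.134 to 0.0720 for ppp16. The cause was not tested.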
